A study of Mus musculus with 7 samples.

Results

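The genes described here build, sulfate, trim or carry heparan sulfate, chondroitin sulfate and hyaluronan, the long sugar chains of the cell surface and matrix. They were chosen by symbol: each probe set with a single platform gene symbol of the Hs2st, Hs3st, Hs6st, Ndst, Chst, Chsy, Csgalnact, Xylt, B3gat, Hyal, Sulf, Gpc or Sdc families, or among Ext1, Ext2, Extl1 to Extl3, Glce, Has1 to Has3, Dse, Ust, Hspg2 and Vcan. This gave 48 genes of 12393 measured, each read from its probe set of highest mean, and a further 21 symbols of these families, among them Xylt1, Ndst1, Sulf1, Chsy1 and Dse, were not analysed here.

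Heparan and chondroitin sulfate chains grow on serine residues of core proteins such as syndecans and glypicans, after enzymes have built a short linker of sugars. Sulfotransferases then place sulfate groups along the chain, and the pattern sets which growth factors, morphogens and chemokines the chain holds. Hyaluronan carries no sulfate and no core protein and is made at the plasma membrane. In bone these chains are known for shaping the reach of bone morphogenetic proteins, fibroblast growth factors and Wnt proteins, and in cartilage for holding water.

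The 7 Affymetrix arrays compared cells sorted from bone marrow stroma of mice that all carried both the OcnCre-Topaz and the OsxCre-mCherry transgenes. All mice were 4 to 6 weeks old and had received tamoxifen 6 days before sorting. The Ocn+ group (green, Topaz, marked through the osteocalcin promoter) had 3 arrays and the Osx+ group (red, mCherry, marked through the osterix promoter) had 4. Doubly coloured cells were not analysed here. Neither pooling of animals nor the animal behind an array is given. A p-value therefore reflects the spread among these arrays, and how many animals that spread covers is not known. Xist, described below, differed widely within both groups, so the arrays of a group are not all repeats of the same RNA. Whether some of them are technical repeats is not known. The labels do not say whether a colour reports the promoter at the time of sorting or a past switch by Cre, so it is not taken as the level of osterix or osteocalcin in the sorted cells. Values are log2 signals. With bulk RNA, fewer cells of a type and less RNA per cell cannot be told apart.

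The arrays did not fall mainly along the sort. Xist, the RNA that coats an inactive X chromosome, stood at 12.33 to 12.96 in 4 arrays (Ocn+ replicates 2 and 3, Osx+ replicates 2 and 4) and at 4.87 to 5.79 in the other 3 (Ocn+ replicate 1, Osx+ replicates 1 and 3). These are called high-Xist and low-Xist arrays here, with the limit set at 8. Eif2s3y, a gene of the Y chromosome, stood at 4.03 in Osx+ replicate 4 and at 8.03 to 10.41 in the other 6 arrays, high-Xist ones included. Of 2 other Y genes, Uty stood at 3.70 to 4.22 in all 7 arrays, and Kdm5d at 7.66 in Osx+ replicate 1 and 4.09 to 5.49 elsewhere. The labels used here give neither sex nor pooling, so the classes are named by Xist alone and are not read as sexes. The low-Xist arrays also had a larger signal gap between 3′ and 5′ control probe sets of Gapdh, 0.89 to 1.26, against 0.59 to 0.64 in high-Xist arrays. The same gap for actin did not separate them, at 0.46 to 0.50 in high-Xist arrays, against 0.47, 0.60 and 0.77 in the low-Xist ones. The 8 measured osteoblast markers of 12 averaged 12.99 to 13.53 in Ocn+ arrays and 12.62 to 13.56 in Osx+ arrays. Markers of other cells were present and moved with the sort. All 12 endothelial markers had a higher mean in Ocn+ arrays (list mean 10.15 to 10.61, against 6.61 to 9.54 in Osx+ arrays). So did all 10 measured neutrophil markers of 11 (10.87 to 11.07, against 7.24 to 10.53) and all 8 measured osteoclast markers of 10 (10.07 to 10.46, against 7.73 to 9.82). Of 12 macrophage markers 10 had a lower mean in Ocn+ arrays (9.39 to 10.62, against 10.78 to 11.96), and of 14 cartilage markers 11 did (9.97 to 11.41, against 10.93 to 12.67). The part of any of these in the results was not tested.

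No gene of this machinery passed the test between Ocn+ and Osx+ cells across all genes. An unadjusted limma p under 0.05 was reached by 3 of 48 genes, a share close to that of all genes. They were Hs3st3a1, a 3-O-sulfotransferase that adds a rare sulfate to heparan sulfate, Sulf2, which removes 6-O-sulfate outside the cell, and Has2, a hyaluronan synthase. Each had a lower mean signal in Ocn+ cells. Of 7 measured heparan sulfate O-sulfotransferases 5 had a difference above 0, but for Hs2st1, Hs6st1, Hs6st2 and Hs6st3 it was only 0.02 to 0.06. Of 3 hyaluronan synthases 1 had a difference above 0, and 52.7% of all genes did. Sulf2 was the only measured gene of its role. Chst15, which makes doubly sulfated chondroitin units, lay slightly higher in every Ocn+ array. For the 4 syndecans, read from the probe set of highest mean, every interval of the difference lay within 1 log2 unit of 0. Another Sdc1 probe set, at lower signal, gave 0.58 without overlap. In limma 0 of 48 genes had an adjusted p under 0.05, with the smallest at 0.689, and the same share over all 12393 genes was 0%. At an unadjusted p under 0.05 there were 3 of 48, or 6.25%, against 5.31% of all genes. All 3 were lower in Ocn+ cells, a direction that held 1.83% of all genes, while 0 were higher (3.48% of all genes). The arrays of the groups did not overlap for 3 of 48, or 6.25%, against 6.90% of all genes. Of these, 2 were lower in Ocn+ cells (2.53% of all genes) and 1 was higher (4.37%). Both overall shares were close to that of all genes. With the replicate number as a block, 3 of 48 again had an unadjusted p under 0.05, against 6.68% of all genes. The median difference, Ocn+ minus Osx+, was 0.06 over the 48 genes and 0.02 over all genes, with 31 of 48 above 0, or 64.6%, against 52.7% of all genes. The 95% interval of the difference lay within 1 log2 unit of 0 for 28 genes, or 58.3%, against 59.9% of all genes, and for the other 20 the arrays leave room for a larger difference.

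**Figure D1:**
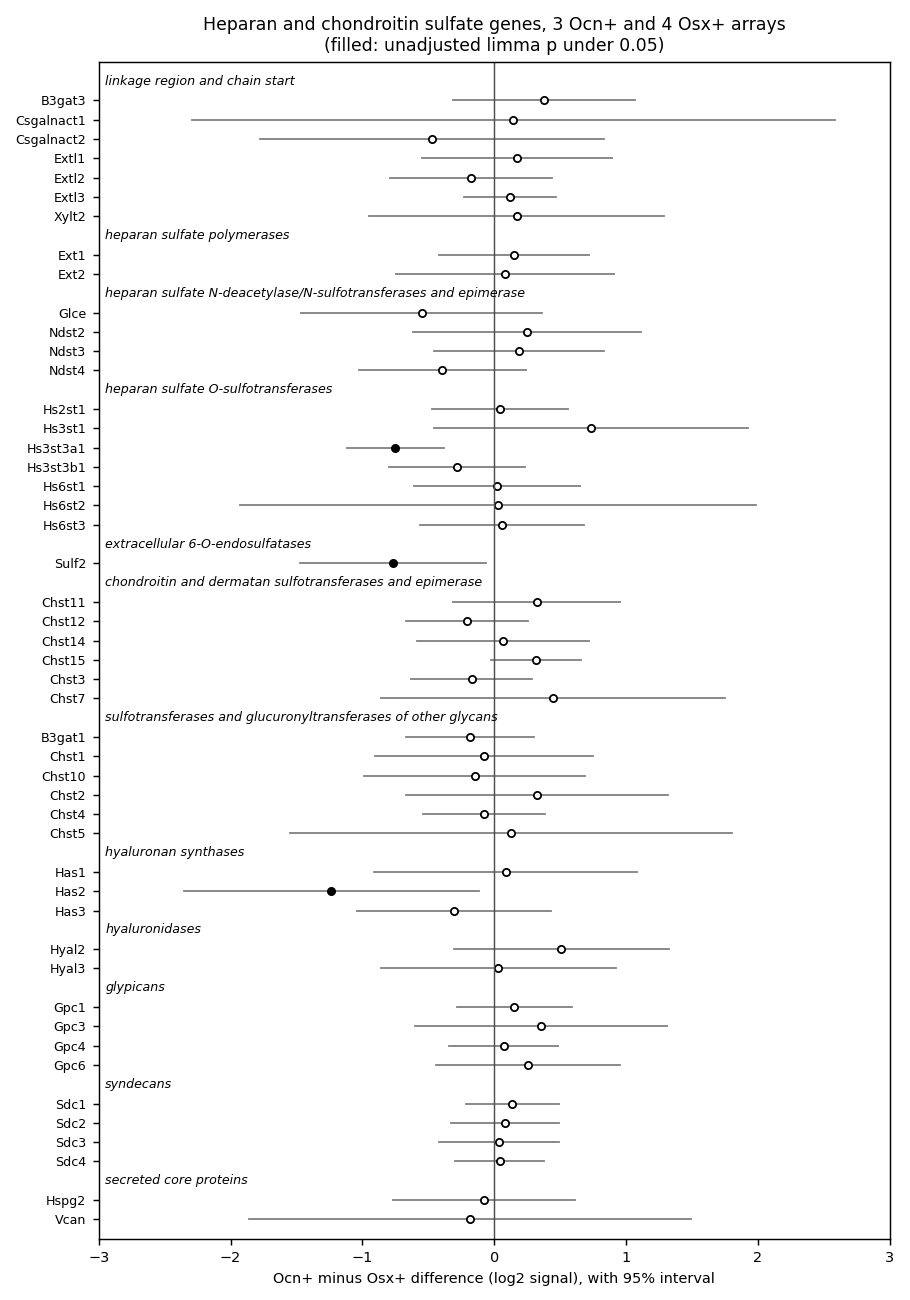
Difference in log2 signal, Ocn+ minus Osx+ (horizontal axis), for each of the 48 genes grouped by role, with its 95% interval from limma (3 Ocn+ and 4 Osx+ arrays). Filled points mark an unadjusted p under 0.05 (Hs3st3a1, Sulf2 and Has2, all below 0), and the syndecans have short intervals around 0 while Csgalnact1, Hs6st2 and Vcan have wide ones.

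The linker and the start of the chain are laid down by Xylt2, which attaches xylose to serine, and B3gat3, which adds the closing glucuronic acid. Extl3 then commits the chain to heparan sulfate, and Csgalnact1 or Csgalnact2 commits it to chondroitin. Of the 7 measured genes of this step 5 had a difference above 0, with differences from -0.47 to 0.38 and a median of 0.14. B3gat3, the member of smallest p here, had 11.29, 10.79 and 10.75 in the 3 Ocn+ arrays, against 11.09, 9.96, 10.74 and 10.47 in the 4 Osx+ arrays. All Ocn+ arrays lay above 3 of the 4 Osx+ arrays, and Osx+ replicate 1 lay among them. The difference was 0.38 (SE 0.29, limma adjusted p = 0.999), and the other B3gat3 probe set gave -0.19. Extl3 varied little on the probe set used, at 11.74, 11.91 and 12.03 in Ocn+ arrays and 11.83, 11.75, 11.68 and 11.85 in Osx+ arrays. Its difference of 0.12 had an interval from -0.23 to 0.47. The other Extl3 probe set, at signals of 5.62 to 6.80, gave -0.01. Csgalnact1 varied far more, with 7.98, 8.76 and 8.87 in Ocn+ arrays, against 5.95, 10.89, 7.96 and 8.77 in Osx+ arrays. The Osx+ arrays thus enclosed the whole Ocn+ range, and the difference of 0.14 had an interval from -2.29 to 2.58. The other Csgalnact1 probe set gave -0.66, so its probe sets differ in sign too.

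Ext1 and Ext2 form the polymerase that extends heparan sulfate. Ext1 had 11.59, 11.93 and 12.08 in Ocn+ arrays, against 11.19, 11.85, 11.98 and 11.84 in Osx+ arrays, a difference of 0.15 (interval -0.42 to 0.72). Ext2 differed by 0.08 (interval -0.75 to 0.91), and for both genes the groups overlapped. The N-deacetylase/N-sulfotransferases and the epimerase Glce modify the chain and open it for the later sulfations. Glce, which turns glucuronic into iduronic acid, had 10.05, 11.02 and 11.31 in Ocn+ arrays, against 10.88, 11.95, 10.97 and 11.58 in Osx+ arrays. Its Ocn+ values were lower on average, by -0.55 (SE 0.39, limma adjusted p = 0.999), and the groups overlapped. The other Glce probe set, at 5.11 to 6.24 in Ocn+ arrays and 4.91 to 5.25 in Osx+ arrays, differed by 0.43, so its probe sets do not give the same direction. Ndst2 differed by 0.25 and Ndst3 by 0.19. Ndst4, the member of this step with the smallest p, had 4.79, 4.45 and 3.78 in Ocn+ arrays, against 4.83, 4.42, 4.98 and 4.70 in Osx+ arrays. Ndst3 and Ndst4 were among the 8 genes whose mean signal lay under the 25th percentile of all genes (6.03). No detection calls were used, so whether such signals lie above background is not known.

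The O-sulfotransferases write the fine pattern of heparan sulfate. Hs3st3a1 and Hs3st3b1 encode enzymes of the same reaction and are neighbours on chromosome 11, with 1 protein-coding gene between them in the RefSeq annotation of GRCm38.p6. Their promoters are shown because the groups did not overlap for Hs3st3a1 and overlapped for Hs3st3b1, though both genes had a lower mean in Ocn+ cells. Probe sequences were not used here, so it was not tested whether either probe set also binds RNA of the other gene. Each sequence is from RefSeq (GRCm38.p6), runs 5′ to 3′ on the gene's strand from 250 bases before to 50 bases after the transcript start, and has GC boxes (GGGCGG on either strand) in capitals. The Hs3st3a1 promoter is chr11:64435082-64435381 on the plus strand and the Hs3st3b1 promoter is chr11:63922235-63922534 on the minus strand.
Hs3st3a1: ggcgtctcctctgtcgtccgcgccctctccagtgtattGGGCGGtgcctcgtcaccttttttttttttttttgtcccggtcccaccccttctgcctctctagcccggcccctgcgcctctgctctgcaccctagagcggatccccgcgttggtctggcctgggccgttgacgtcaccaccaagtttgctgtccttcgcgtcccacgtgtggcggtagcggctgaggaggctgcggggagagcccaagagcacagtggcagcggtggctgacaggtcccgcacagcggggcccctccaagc
Hs3st3b1: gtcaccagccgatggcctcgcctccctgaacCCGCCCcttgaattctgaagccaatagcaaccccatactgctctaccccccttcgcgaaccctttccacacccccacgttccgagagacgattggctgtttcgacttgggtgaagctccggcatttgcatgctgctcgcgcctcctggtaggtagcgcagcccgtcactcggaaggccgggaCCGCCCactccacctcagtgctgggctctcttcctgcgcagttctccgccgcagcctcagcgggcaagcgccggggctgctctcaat
The search covered both strands for the GC box, for the TATA box, spelled TATAAA, and for the core that RUNX factors bind, spelled TGTGGT, and only GC boxes were found. Hs3st3a1 holds 1 GC box and Hs3st3b1 holds 2, a motif found in 35.7% of 32851 RefSeq promoters of this length. Neither window holds the TATA box (13.6% of promoters) or the RUNX core (16.8%). Both are rich in G and C, at 65.3% for Hs3st3a1 and 63.7% for Hs3st3b1, against a median of 52.7%. By these measures both windows are alike.

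Hs3st3a1 had the smallest p of the 48 genes. It stood at 8.72, 8.41 and 8.75 in the 3 Ocn+ arrays, against 9.30, 9.33, 9.49 and 9.40 in the 4 Osx+ arrays. Every Ocn+ array lay below every Osx+ array, and the Osx+ arrays were close together. It averaged 8.63 ± 0.19 over 3 Ocn+ arrays and 9.38 ± 0.08 over 4 Osx+ arrays (SD), so the signal was 1.68-fold brighter in Osx+ cells. The difference of -0.75 (SE 0.16, interval -1.12 to -0.38) did not pass across all genes (limma unadjusted p = 0.00184, adjusted p = 0.689). Restricted to high-Xist arrays it was -0.79, and restricted to low-Xist arrays, with a single Ocn+ array, -0.67. With arrays weighted by their fit, a setting that calls 97 genes or 0.783% of all, its limma adjusted p was 0.0491 (difference -0.88). Leaving out any of the 7 arrays in turn kept the unadjusted p between 0.00299 and 0.0111. Macrophage and cartilage markers were also lower in Ocn+ arrays, and their part in this difference was not tested.

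Hs3st3b1 had 6.99, 6.42 and 6.79 in Ocn+ arrays, against 7.40, 6.96, 6.79 and 6.90 in Osx+ arrays, which overlap. Its difference was -0.28 (SE 0.22, interval -0.80 to 0.23), and a test of Hs3st3a1 against Hs3st3b1 was not made. The other Hs3st3b1 probe set gave -0.26, from signals of 3.35 to 4.38. With array weights the Hs3st3b1 difference was -0.40 (limma unadjusted p = 0.0431, adjusted p = 0.265). That setting gave 17.8% of all genes an unadjusted p under 0.05. Hs3st1, which makes the site in heparin that binds antithrombin, had 8.87, 7.76 and 7.94 in Ocn+ arrays, against 8.41, 6.74, 7.97 and 6.71 in Osx+ arrays. Its mean was 0.73 higher in Ocn+ cells (SE 0.51), with both groups spread over more than 1 log2 unit. The 10 markers of mast cells, a known source of heparin, averaged 5.08 to 6.77 in Ocn+ arrays and 4.81 to 7.33 in Osx+ arrays. Endothelial, neutrophil and osteoclast markers were higher in Ocn+ arrays, as given above. The part of any of these cells in the Hs3st1 difference was not tested. Hs2st1, the 2-O-sulfotransferase, had 11.65, 12.21 and 12.12 in Ocn+ arrays, against 11.90, 12.24, 11.62 and 12.02 in Osx+ arrays. Its difference of 0.05 had an interval from -0.47 to 0.56. The 6-O-sulfotransferases gave 0.02 for Hs6st1, 0.03 for Hs6st2 and 0.06 for Hs6st3, and only Hs6st1 and Hs6st3 had intervals within 1 log2 unit, since Hs6st2 ran from 4.75 to 8.12 over the Osx+ arrays. The other probe sets gave 0.23 and -0.30 for Hs2st1 and -0.52 and -0.16 for Hs6st2, so neither gene has a settled sign.

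Sulf2 is a secreted endosulfatase that strips 6-O-sulfate from finished heparan sulfate. It stood at 11.33, 10.44 and 10.82 in Ocn+ arrays, against 12.24, 11.44, 11.41 and 11.43 in Osx+ arrays. The groups did not overlap, by the narrow margin between Ocn+ replicate 1 and Osx+ replicate 3, and Osx+ replicate 1 stood apart above the other 3. It averaged 10.86 ± 0.45 over 3 Ocn+ arrays and 11.63 ± 0.41 over 4 Osx+ arrays (SD), 1.70-fold brighter in Osx+ cells. The difference of -0.77 (SE 0.30, interval -1.47 to -0.06) did not pass across all genes (limma unadjusted p = 0.0369, adjusted p = 0.935). Without Osx+ replicate 1 it was -0.56, with an unadjusted limma p of 0.0620, and without Ocn+ replicate 2 it was -0.55, with an unadjusted limma p of 0.138. Without Ocn+ replicate 3 it was -0.75, with an unadjusted limma p of 0.0894, and the other 4 omissions kept that p under 0.05. Restricted to high-Xist arrays it was -0.80, and to low-Xist arrays -0.50.

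**Figure D2:**
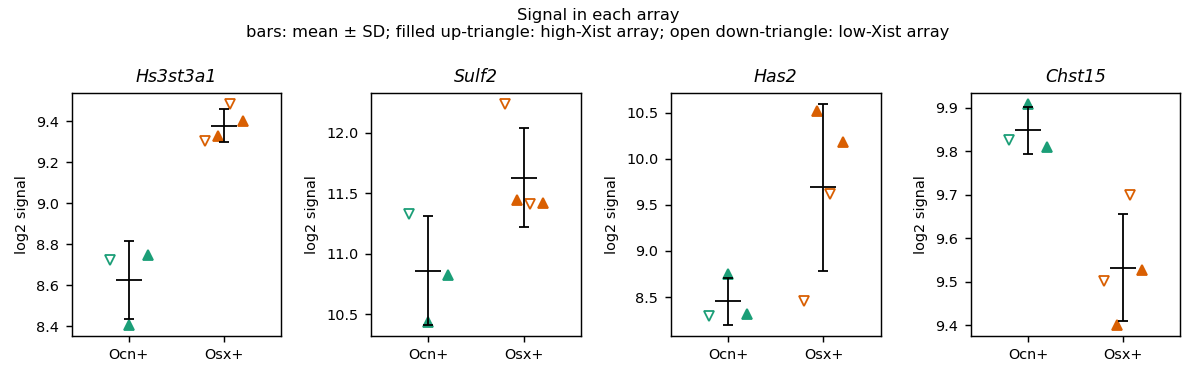
Log2 signal of Hs3st3a1, Sulf2, Has2 and Chst15 in each array (filled up-triangles high-Xist, open down-triangles low-Xist), with mean ± SD for 3 Ocn+ (left) and 4 Osx+ (right) arrays. Vertical axes differ between panels and do not start at 0. Hs3st3a1 separates the groups with a gap, Sulf2 and Chst15 by a narrow margin, and for Has2 Osx+ replicate 1 lies at the level of the Ocn+ arrays.

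The chondroitin and dermatan sulfotransferases had 4 of 6 differences above 0 and a median of 0.19. Chst15, which adds a further sulfate to sulfated chondroitin, had 9.83, 9.91 and 9.81 in Ocn+ arrays, against 9.50, 9.40, 9.70 and 9.53 in Osx+ arrays. Each Ocn+ array was above each Osx+ array, at a small distance. It averaged 9.85 ± 0.05 over 3 Ocn+ arrays and 9.53 ± 0.12 over 4 Osx+ arrays (SD). The difference of 0.32 (SE 0.15, interval -0.03 to 0.66) did not pass (limma unadjusted p = 0.0656, adjusted p = 0.985). The other Chst15 probe set gave 0.63 with overlapping groups. Chst14, which sulfates dermatan sulfate, had 10.87, 10.42 and 10.30 in Ocn+ arrays, against 10.91, 9.88, 10.63 and 10.43 in Osx+ arrays, and differed by 0.07. Chst11 and Chst12, which sulfate chondroitin at the same position, gave 0.32 (SE 0.27) and -0.21 (SE 0.20). Chst7, which sulfates chondroitin at another position, gave 0.44 with an interval from -0.86 to 1.75, and Chst3 gave -0.17 from signals of 4.35 to 4.96.

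The symbol families also hold enzymes that act on other sugars. B3gat1 and Chst10 build the HNK-1 carbohydrate of the nervous system, and Chst1, Chst2, Chst4 and Chst5 sulfate keratan sulfate or related chains. Of these 6, 2 had a difference above 0, with a range from -0.19 to 0.32. Chst1 had 10.31, 10.13 and 9.63 in Ocn+ arrays, against 10.80, 10.39, 9.52 and 9.69 in Osx+ arrays, a difference of -0.08 (interval -0.91 to 0.75). B3gat1, the member of smallest p in this set, had 5.62, 5.52 and 5.48 in Ocn+ arrays, against 6.19, 5.52, 5.65 and 5.55 in Osx+ arrays. Apart from Osx+ replicate 1 its arrays were level.

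Hyaluronan is made by Has1, Has2 and Has3, of which Has2 is the synthase needed in the mouse embryo. Has2 had the widest difference of the 48 genes and the only one over 1 log2 unit. It stood at 8.30, 8.75 and 8.32 in Ocn+ arrays, against 8.45, 10.51, 9.61 and 10.18 in Osx+ arrays. The Ocn+ arrays were low and close together, 3 Osx+ arrays were well above them, and Osx+ replicate 1 was among them. It averaged 8.46 ± 0.25 over 3 Ocn+ arrays and 9.69 ± 0.90 over 4 Osx+ arrays (SD), 2.35-fold brighter in Osx+ cells. The difference of -1.23 (SE 0.48, interval -2.36 to -0.11) did not pass across all genes (limma unadjusted p = 0.0351, adjusted p = 0.935). The other Has2 probe set placed the arrays alike, with 6.75, 6.80 and 6.61 in Ocn+ arrays, against 6.79, 8.49, 7.07 and 8.29 in Osx+ arrays, and a difference of -0.94. Without Osx+ replicate 1 the difference was -1.65, with an unadjusted limma p of 0.000938, and leaving out any other array gave an unadjusted limma p of 0.0514 to 0.0905. Within high-Xist arrays it was -1.81, with 8.75 and 8.32 in Ocn+ arrays, against 10.51 and 10.18 in Osx+ arrays, and within low-Xist arrays it was -0.74. The cartilage markers averaged 11.27, 11.41 and 9.97 in Ocn+ arrays, against 12.03, 12.67, 10.93 and 11.03 in Osx+ arrays, and their part in the Has2 difference was not tested.

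Has1 had 11.34, 10.23 and 10.02 in Ocn+ arrays, against 10.52, 9.81, 11.18 and 10.27 in Osx+ arrays, a difference of 0.09 with an interval from -0.91 to 1.08. Has3 stood at 4.66 to 4.75 in Ocn+ arrays and 4.40 to 5.56 in Osx+ arrays. Hyal2, a hyaluronidase anchored to the cell surface, had 9.95, 9.27 and 9.29 in Ocn+ arrays, against 9.70, 8.58, 9.22 and 8.49 in Osx+ arrays. Its mean was 0.51 higher in Ocn+ cells (SE 0.35, limma adjusted p = 0.999), with overlap through Osx+ replicate 1. Hyal3 differed by 0.03.

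Among the core proteins that carry the chains, the 4 syndecans gave short intervals. Their mean signals were high, from percentile 89.2 of all genes for Sdc3 to 99.4 for Sdc4. Sdc4, a syndecan of focal adhesions, had 14.15, 14.32 and 14.26 in Ocn+ arrays, against 14.10, 14.28, 14.13 and 14.30 in Osx+ arrays. Sdc1, the syndecan of epithelia and plasma cells, had 13.37, 13.67 and 13.57 in Ocn+ arrays, against 13.27, 13.46, 13.42 and 13.45 in Osx+ arrays. The differences were 0.14 for Sdc1, 0.08 for Sdc2, 0.04 for Sdc3 and 0.04 for Sdc4, and the 4 intervals lay between -0.42 and 0.49. The other probe sets of Sdc2 gave -0.20 and -0.07, so its small difference has no settled sign. Those of Sdc3 gave 0.01 and 0.29, and that of Sdc4 gave 0.22, all with overlapping groups. Of the other 3 Sdc1 probe sets, 2 gave 0.19 and 0.11. The third, at lower signal, gave 0.58 and did not overlap, with 8.78, 8.45 and 8.38 in Ocn+ arrays, against 8.21, 7.89, 8.06 and 7.64 in Osx+ arrays. Plasma cell markers (6 of 7 measured) averaged 7.75 to 8.02 in Ocn+ arrays and 7.51 to 8.25 in Osx+ arrays.

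All 4 measured glypicans of 6, which sit on the outer membrane by a lipid anchor, had a difference above 0, from 0.07 to 0.35. Gpc1 had 12.91, 13.29 and 13.26 in Ocn+ arrays, against 12.99, 13.16, 12.73 and 13.14 in Osx+ arrays, with an interval of the difference from -0.28 to 0.59. Gpc3, the glypican lost in the human Simpson-Golabi-Behmel overgrowth syndrome, had 12.28, 12.73 and 13.10 in Ocn+ arrays, against 11.82, 12.78, 11.69 and 13.11 in Osx+ arrays. Its difference of 0.35 had an interval from -0.60 to 1.31, and the groups overlapped. Gpc4 differed by 0.07. Gpc6 differed by 0.25, but by -0.18 on its other probe set. Hspg2, the basement membrane proteoglycan perlecan, had 13.32, 12.74 and 12.88 in Ocn+ arrays, against 13.57, 12.76, 13.33 and 12.57 in Osx+ arrays, and differed by -0.08 (interval -0.77 to 0.62). The groups overlapped for Hspg2. Perlecan is also made by endothelial cells, whose marker mean was higher in every Ocn+ array than in any Osx+ array. The part of these cells in the Hspg2 signal was not tested. Vcan, the chondroitin sulfate proteoglycan versican, ran from 8.80 to 10.11 in Ocn+ arrays and from 7.82 to 10.63 in Osx+ arrays.

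**Figure D3:**
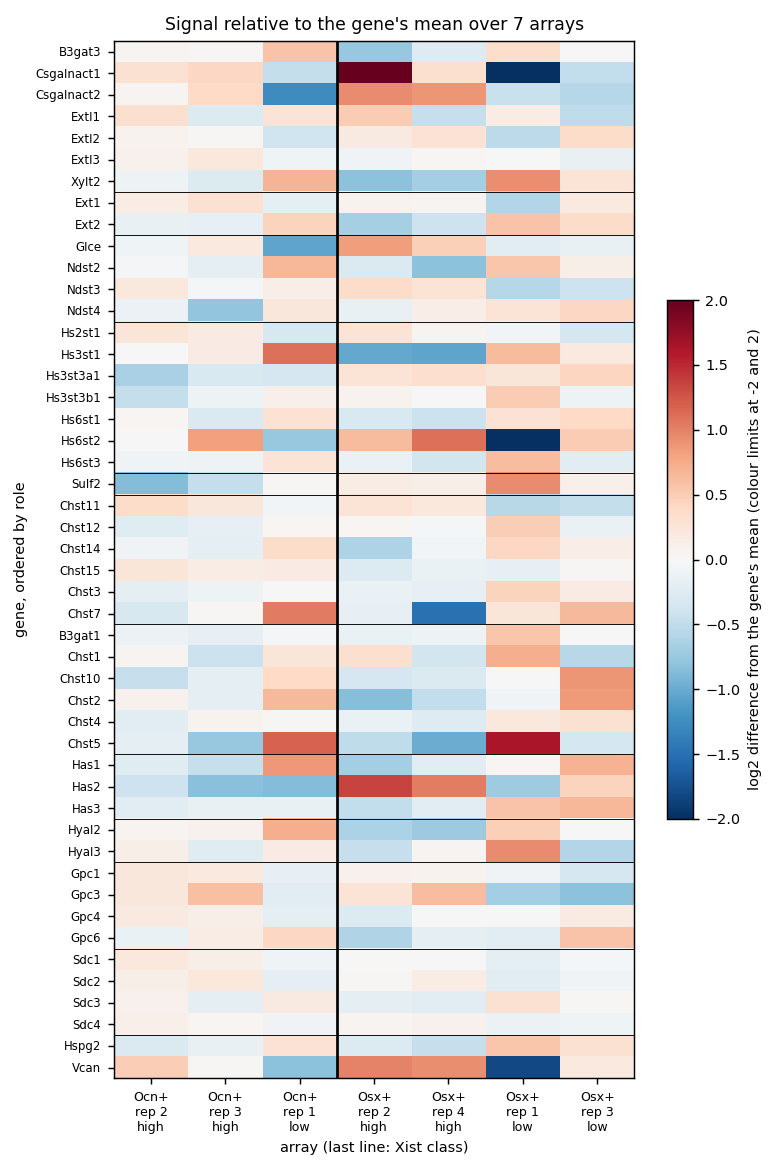
Log2 signal of each of the 48 genes (rows, ordered by role) in each array (columns, Ocn+ left and Osx+ right of the line, high-Xist before low-Xist within each), as the difference from the gene's mean over 7 arrays. The colour scale ends at -2 and 2, and many rows, such as Hs3st1, Xylt2 and Csgalnact2, split by Xist class within both groups.

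The same genes varied more between the Xist classes than between the sorted groups. With both terms fitted together, the class difference was larger in size than the Ocn+ minus Osx+ difference for 42 of 48 genes, or 87.5%, against 69.9% of all genes. In limma 15 of 48 genes, or 31.25%, had an adjusted p under 0.05 between high-Xist and low-Xist arrays, against 28.2% of all genes, so the share was near that of the whole table. Of the 15, 4 were higher in high-Xist arrays (Csgalnact2, Glce, Gpc3 and Chst11), a direction called for 11.2% of all genes, and 11 were lower (16.9% of all genes). The classes did not overlap for 23 of 48, or 47.9%, against 34.3% of all genes. Csgalnact2 had 10.59, 10.93, 11.49 and 11.42 in the high-Xist arrays, against 9.28, 10.09 and 9.97 in the low-Xist arrays, a difference of 1.45 (SE 0.13, limma adjusted p = 0.00425). The classes did not overlap. Hs3st1 was lower in high-Xist arrays, at -1.29 (SE 0.17, limma adjusted p = 0.00706), with 7.76, 7.94, 6.74 and 6.71 in high-Xist arrays, against 8.87, 8.41 and 7.97 in low-Xist arrays. Xylt2 (-1.16), Chst7 (-1.24), Has1 (-0.97), Ext2 (-0.85), Ndst2 (-0.85), Hyal2 (-0.82) and Hspg2 (-0.68) were also lower in high-Xist arrays. Among the syndecans 0 passed, and their class differences ran from -0.31 for Sdc3 to 0.28 for Sdc2. Even so, Sdc1, Sdc2 and Sdc4 did not overlap between the classes, while Sdc3 did. The classes were defined from these arrays. The gap between 3′ and 5′ probe sets separates them for Gapdh. For actin it does not, though its largest values, 0.60 and 0.77, were in low-Xist Osx+ replicates 1 and 3. The part of this gap in these differences was not tested.

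**Figure D4:**
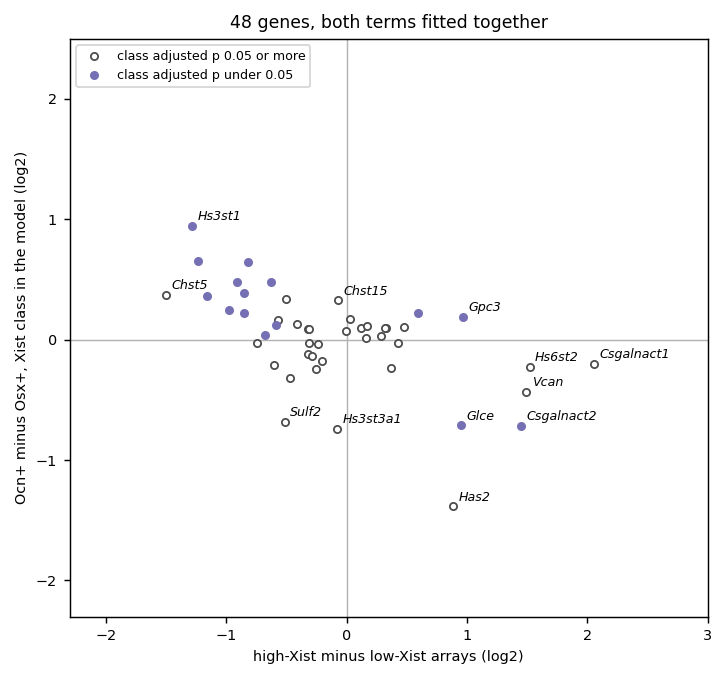
For the 48 genes, the high-Xist minus low-Xist difference (horizontal axis, log2) against the Ocn+ minus Osx+ difference (vertical axis, log2), both from 1 fit over 7 arrays. Filled points are the 15 genes with a class adjusted p under 0.05. Most points spread further sideways than up, while Hs3st3a1 and Chst15 lie near 0 on the horizontal axis.

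With the class in the model, 9 of 48 genes, or 18.75%, had an unadjusted p under 0.05 for Ocn+ minus Osx+, against 16.0% of all genes, and 0 had an adjusted p under 0.05 (smallest 0.113). The 9 were Hs3st3a1 (-0.74), Has2 (-1.38), Sulf2 (-0.68), Csgalnact2 (-0.71) and Glce (-0.71), with lower signal in Ocn+ cells, and Hs3st1 (0.95), Hyal2 (0.64), B3gat3 (0.48) and Chst15 (0.33), with higher. Restricted to high-Xist arrays Hs3st1 differed by 1.12 and Csgalnact2 by -0.69, and restricted to low-Xist arrays by 0.68 and -0.75. Over the 4 high-Xist arrays 11 of 48 genes had an unadjusted limma p under 0.05, against 19.7% of all genes, and 26 of 48 did not overlap, against 55.2% of all genes. Over the 3 low-Xist arrays these were 0 of 48, against 2.16% of all genes, and 26 of 48, against 59.7%.

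Genes of the same pathway outside these families were described from a list of 80, of which 65 were measured. In limma 0 of 65 passed across all genes, and 6, or 9.23%, had an unadjusted p under 0.05, against 5.31% of all genes. Of the 6, 3 were higher in Ocn+ cells (3.48% of all genes) and 3 lower (1.83%), and the median difference was -0.04. With so few genes past an unadjusted threshold, they are given as a description. Both partners of the cartilage aggregate, which are also on the cartilage marker list above, had lower means in Ocn+ cells. Acan, the large chondroitin sulfate proteoglycan, had 13.14, 13.46 and 12.91 in Ocn+ arrays, against 14.01, 14.28, 13.51 and 13.69 in Osx+ arrays. The Acan groups did not overlap, by a narrow margin. Hapln1, which locks Acan to hyaluronan, had 8.55, 9.76 and 8.37 in Ocn+ arrays, against 10.42, 12.35, 9.35 and 10.31 in Osx+ arrays, with overlap. Their differences were -0.70 (SE 0.24) and -1.71 (SE 0.70). Gfpt1, which opens the route to the amino sugars of all these chains, had 8.79, 8.83 and 8.72 in Ocn+ arrays, against 9.04, 9.06, 9.52 and 9.23 in Osx+ arrays, without overlap, a difference of -0.43 (SE 0.17). Higher in Ocn+ cells were Agrn, the heparan sulfate proteoglycan agrin, at 0.40 (SE 0.17), Spock1, a testican, at 1.62 (SE 0.58), and Itih2, a heavy chain that is transferred to hyaluronan, at 0.61 (SE 0.20). The Agrn groups were apart by a narrow margin, 11.36 in Ocn+ replicate 1 against 11.34 in Osx+ replicate 3.

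**Figure D5:**
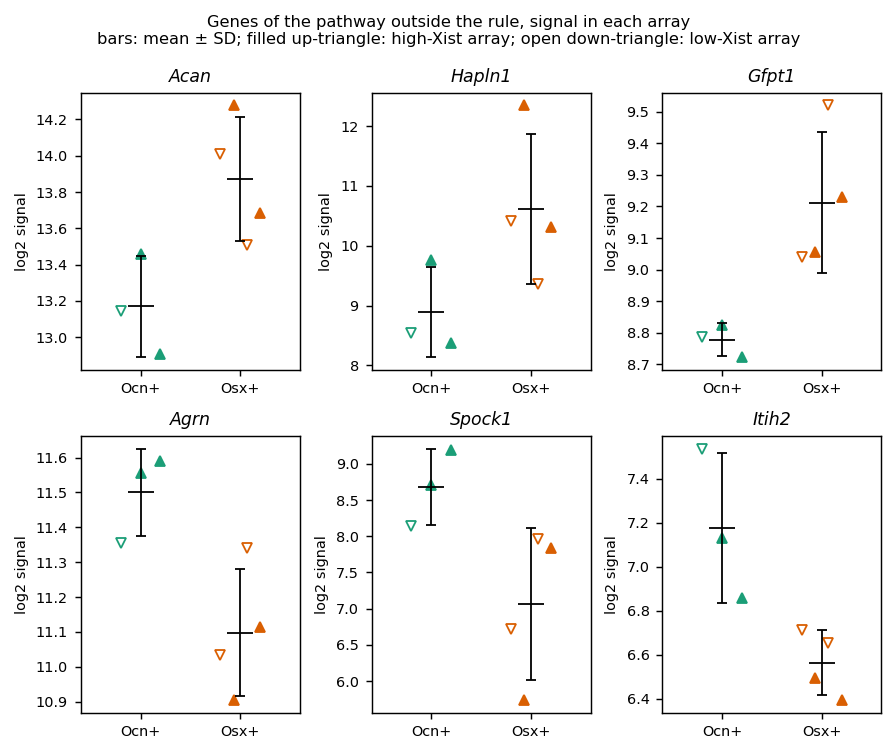
Log2 signal in each array (filled up-triangles high-Xist, open down-triangles low-Xist) with mean ± SD for 3 Ocn+ (left) and 4 Osx+ (right) arrays, for the 6 pathway genes with an unadjusted limma p under 0.05. Vertical axes differ between panels and do not start at 0. Acan, Hapln1 and Gfpt1 are lower and Agrn, Spock1 and Itih2 higher in Ocn+ cells, and of the 6 only Hapln1 has overlapping groups.

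By step, sulfate and sugar supply had 14 genes measured of 16, with 0 higher and 1 lower at that threshold and a median of -0.15. Papss2, a synthase of the sulfate donor, had 8.88, 10.01 and 10.13 in Ocn+ arrays, against 10.23, 12.07, 9.85 and 11.14 in Osx+ arrays, a difference of -1.15 (SE 0.58), and was named after its values were seen. Its partner Papss1 differed by 0.08. Degradation had 11 of 18 measured, 0 in either direction and a median of 0.13, with the iduronate sulfatase Ids at -0.38 (SE 0.26). The remaining linker and chondroitin partners had 5 of 7 measured and 0 in either direction, with the galactosyltransferase B4galt7 at 0.18 (SE 0.22). Other core proteins had 20 of 21 measured, 2 higher and 1 lower, and hyaluronan binders and depolymerases had 15 of 18 measured, 1 higher and 1 lower.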

How the data were processed

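Total RNA of 7 sorted samples was amplified by the NuGEN Ovation V2 method, labelled with biotin and hybridised, per the labels' protocols. The authors deposited log2 signals summarised by RMA, per the submitters' processing notes, 1 for each probe set on each array. Which software ran RMA is not given in the sources used here. Of 22690 probe sets 64 were controls and 20380 had a single platform symbol. RMA equalises array distributions (array medians 8.25 to 8.35), so a change of total RNA cannot be read. Arrays have no depth, and their number limits the precision.

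Ocn+ minus Osx+ was fitted in limma 3.58.1 (R 4.3.3; lmFit, eBayes) over 12393 genes as a two-sided test. Adjusted p-values (Benjamini-Hochberg) span all genes, with 0.05 as the limit. Per array, values were given for members with an unadjusted p under 0.05 or without overlap and, per role, for the member of smallest p and that of highest mean; others were added after values were seen. From the pathway lists, genes with an unadjusted p under 0.05, or else the smallest p, were named. Members and lists were chosen with earlier results of these data known. The fit was tested on simulated data. The table names no build, so no gene coordinates are given apart from RefSeq promoters.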

Additional observations from a re-analysis of the deposited data

Results flagged for a closer look

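Sulf2 in Osx+ replicate 1 stood at 12.24, far above the other 3 Osx+ arrays (11.41 to 11.44), so that this array alone covers most of the group's range. It was the only such case among the 48 genes, each examined in the 4 Osx+ arrays, where chance gives about 1 in 20 genes. Over 48 genes, 1 such case is no more than this rate gives. The cause was not tested.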

How the results depend on the processing

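No member had an adjusted p under 0.05 in limma under any alternative but array weights, where 1 did (Hs3st3a1). Array weights gave 7 members and 17 pathway genes with an unadjusted p under 0.05 (17.8% of all genes). The Xist class as a term gave 9 and 14 (16.0% of all genes). Within high-Xist arrays there were 11 and 19 (19.7% of all genes), and 26 members without overlap (55.2% of all genes). Within low-Xist arrays, where the lone Ocn+ array is assumed to vary like the others, there were 0 and 1 (2.16%), and 26 without overlap (59.7%). Leaving out 1 array gave 1 to 3 members with an unadjusted p under 0.05 (1 without Ocn+ replicate 2 or 3), 3 to 8 without overlap (8 without Ocn+ replicate 1 or Osx+ replicate 1), a median difference of -0.021 (without Ocn+ replicate 1) to 0.094 (without Osx+ replicate 1), and 1 to 7 pathway genes (3 without Ocn+ replicate 1 or 2, 1 without Ocn+ replicate 3). The causes were not tested beyond the smaller number of arrays. The replicate number as a block gave the same 3 members and 7 pathway genes, of which 3 (Acan, Spock1, Hapln1) were among the 6 named. Gfpt1, Agrn and Itih2 were not among them, 4 others were, and no adjusted call changed. Same-numbered arrays deviated from their group means with correlations of 0.63, 0.45 and -0.30. The first and second pairs share an Xist class and the third does not. A shared number and a shared class therefore cannot be told apart, and whether any arrays are paired is not known. Filters, normalization, the prior and the choice of probe set left all counts within 1.5 times. Of 391 alternative differences of 20 named members, 33 changed sign, none of them for Hs3st3a1, Sulf2, Has2 or Chst15. Hs3st3a1 and Sulf2 are among the 29 members with 1 probe set, so no other probe set could change their sign. Of 27 other probe sets of members, 15 had the sign of the set used. The difference of the group effect between Xist classes had 0 genes with an adjusted p under 0.05 in limma, and 2 members and 471 genes at an unadjusted p under 0.05.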
